A study of Saccharomyces cerevisiae with 4 samples.

Results

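The genes described here are the 3 enzymes of proline synthesis in budding yeast (Saccharomyces cerevisiae), PRO1, PRO2 and PRO3, with YHR033W, the paralog of PRO1. They are 4 of the 6459 genes in the deposited tables, taken by name. They were selected on their pathway with their counts and FPKM in auxin-treated and control cells already known. Their difference between treatments is therefore a description and carries no test. All 4 were among the 5799 genes that passed the filter on low counts.

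The libraries came from strain ESS1-AID in the BY4741 background, grown in YPD medium. The labels give its receptor construct as HIS3::ADH1-OsTIR19Myc and its tagged allele as ESS1AID 71-114-6Flag::hphB. ESS1 encodes a prolyl isomerase that acts on the tail of RNA polymerase II, AID is a degron that marks the protein for breakdown when auxin is present, and OsTIR1 is the plant receptor that the degron needs. In mid-log phase 2 cultures received DMSO, the solvent control, and 2 received 2 mM indole-3-acetic acid (IAA, an auxin) for 3 h, as biological replicates by the series' account. Control and treated cells carry the same degron and receptor, so loss of Ess1 and other effects of IAA on yeast cannot be told apart here.

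Proline is built from glutamate in the cytosol. Pro1, a glutamate kinase, phosphorylates glutamate and is held in check by proline itself in yeast. Pro2 reduces the product to glutamate semialdehyde, which closes to pyrroline carboxylate without an enzyme, and Pro3 reduces that to proline. Yeast also uses proline as a nitrogen source and as a protectant under freezing, drying and oxidative stress. YHR033W arose beside PRO1 in the duplication of the whole genome, and the RefSeq annotation calls its product a putative glutamate kinase without a known function.

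The paralogs are far apart in sequence, which matters because their reads could otherwise be confused. PRO1 (YDR300C) lies on the minus strand of chromosome IV, 1061505 to 1062791 in build R64, and YHR033W on the plus strand of chromosome VIII, 175548 to 176819. Over 1256 aligned coding positions 64.3% of the bases were identical. No exact word of 50 bases was common to both coding sequences, and the longest exact stretch in common was 11 bases. That stretch is printed here with 20 bases on each side, from the coding strand of each gene at the 3′ end of the coding sequence, with the bases that differ in capitals. PRO1 is chrIV:1061507-1061557 (minus strand) and YHR033W is chrVIII:176764-176814 (plus strand).
PRO1: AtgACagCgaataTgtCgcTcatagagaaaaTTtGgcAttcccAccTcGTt
YHR033W: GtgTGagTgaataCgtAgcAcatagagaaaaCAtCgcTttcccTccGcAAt
Of these 51 positions, 15 differed. The counts of both genes were whole numbers in every library, as were those of PRO2 and PRO3, whereas reads divided among loci leave decimals (428 of 6459 genes had them). None of the 4 genes overlapped another annotated gene.

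**Figure D1:**
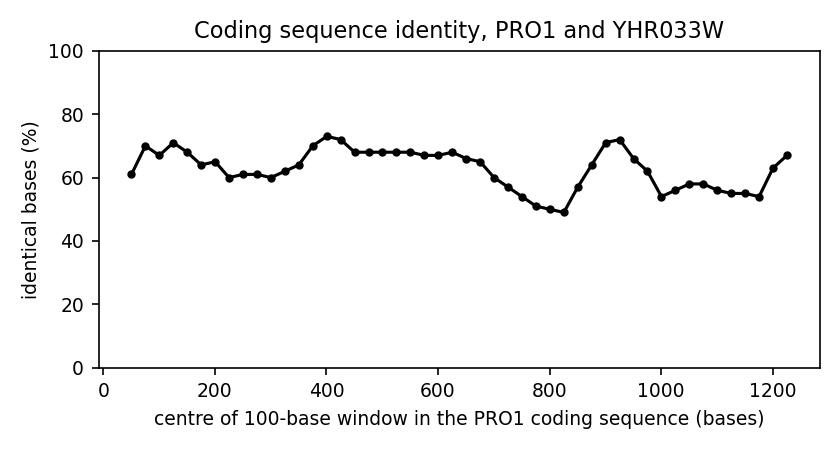
Share of identical bases (%) between the PRO1 and YHR033W coding sequences in 100-base windows, against the window's centre in the PRO1 coding sequence in bases. Identity lay between 49% and 73% in every window.

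The regions before the coding starts also differ, and they are printed because the values of the 4 genes went different ways. Each window runs from 250 bases before to 50 bases after the first coding base, read 5′ to 3′ on the coding strand from the RefSeq genome of build R64. Capitals mark matches, on either strand, to 6 motifs. The stress response element was searched as AGGGG, and the core of the sites of Gcn4, the activator of amino acid synthesis genes, as TGACTC. Sites for nitrogen control factors of the zinc finger type were searched as GATAAG, and the E-box as CACGTG. The TATA box was searched as TATAAA, and the site of Put3, the activator of proline use, as its known pair of inverted triplets with 10 bases between them. No motif overlapped another in these windows. The positions are chrIV:1062742-1063041 (minus strand) for PRO1, chrVIII:175298-175597 (plus strand) for YHR033W, chrXV:922856-923155 (minus strand) for PRO2 and chrV:200826-201125 (plus strand) for PRO3.
PRO1: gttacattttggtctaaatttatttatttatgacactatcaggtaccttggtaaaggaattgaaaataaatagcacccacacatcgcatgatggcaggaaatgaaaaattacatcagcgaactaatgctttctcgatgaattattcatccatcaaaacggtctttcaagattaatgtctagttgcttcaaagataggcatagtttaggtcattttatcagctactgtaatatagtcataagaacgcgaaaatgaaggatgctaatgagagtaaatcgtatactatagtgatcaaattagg
YHR033W: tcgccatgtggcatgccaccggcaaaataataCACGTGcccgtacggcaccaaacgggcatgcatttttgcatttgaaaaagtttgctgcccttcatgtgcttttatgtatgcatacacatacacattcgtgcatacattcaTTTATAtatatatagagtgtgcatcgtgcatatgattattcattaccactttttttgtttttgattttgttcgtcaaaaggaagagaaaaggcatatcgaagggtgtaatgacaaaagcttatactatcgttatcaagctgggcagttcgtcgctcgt
PRO2: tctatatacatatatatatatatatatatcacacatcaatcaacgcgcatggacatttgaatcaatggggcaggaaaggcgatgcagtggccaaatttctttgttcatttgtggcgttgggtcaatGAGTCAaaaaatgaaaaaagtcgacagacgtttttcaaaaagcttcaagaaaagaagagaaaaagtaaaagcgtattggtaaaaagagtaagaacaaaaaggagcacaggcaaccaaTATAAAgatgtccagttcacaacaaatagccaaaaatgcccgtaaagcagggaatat
PRO3: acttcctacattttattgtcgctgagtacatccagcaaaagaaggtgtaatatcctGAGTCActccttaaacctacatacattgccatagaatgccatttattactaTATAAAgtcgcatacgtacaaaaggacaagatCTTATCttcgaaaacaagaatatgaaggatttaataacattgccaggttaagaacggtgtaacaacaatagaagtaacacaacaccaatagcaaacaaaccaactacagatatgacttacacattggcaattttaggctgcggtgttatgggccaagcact
The window of PRO1 held none of the 6 motifs. The window of YHR033W held CACGTG from 218 to 213 bases before the start and TATAAA, on the opposite strand, from 108 to 103 bases before it. PRO2 and PRO3 both held TGACTC on the opposite strand, from 124 to 119 bases before the start in PRO2 and from 194 to 189 bases before it in PRO3. TATAAA stood from 7 to 2 bases before the start of PRO2 and from 143 to 138 bases before that of PRO3, and GATAAG, on the opposite strand, from 111 to 106 bases before that of PRO3. Among 6020 windows of the same kind, CACGTG was found in 2.91%, TGACTC in 7.96%, GATAAG in 14.6% and TATAAA in 45.4%. AGGGG (21.6% of the windows) and the Put3 site (1.08%) were found in 0 of the 4 genes. A match describes letters only and is not evidence of binding.

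The deposited counts summed to between 26046702 and 33625232 per library, with the IAA libraries deeper. Log2 values correlated at r = 0.994 between the DMSO libraries and r = 0.996 between the IAA libraries, and at most r = 0.973 across treatments, over 5799 genes that are not independent replicates. LEU2, URA3 and MET17, which BY4741 lacks, had 0 counts in all 4 libraries. STE2, the receptor of mating type a cells, had 10344 to 12291 counts, and STE3, that of the other mating type, had 149 to 175. The a-factor genes MFA1 and MFA2, also genes of a cells, went the other way, with only 0 to 7 and 3 to 26 counts. Their FPKM was given as 0 in all 4 libraries. MF(ALPHA)1 and MF(ALPHA)2, pheromone genes of the other mating type, had 1 to 6 and 28 to 52 counts. The reasons were not tested. CPM is the share of a library's counts, scaled by TMM, a correction for library composition. ESS1 mRNA was at 5.15 and 5.31 CPM in DMSO and at 6.7 and 7.92 in IAA. It was called higher in IAA (1.4-fold, log2 fold change 0.48, SE 0.127, edgeR adjusted p = 0.0109), which does not report on the protein. In bulk RNA, fewer cells that express a gene and less RNA per cell cannot be told apart.

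YHR033W was the member with the largest difference between treatments. FPKM gives fragments scaled by gene length and sequencing depth, a level per length. For YHR033W it was 6 and 6.64 in the DMSO libraries and 21.4 and 18.09 in the IAA libraries. Both IAA libraries lay above both DMSO libraries, by a gap far wider than that within either pair. In TMM-scaled CPM the values were 6.11 and 6.74 in DMSO (mean 6.43 ± 0.45, SD, n = 2) and 23.3 and 19.4 in IAA (21.4 ± 2.75, n = 2). The level was 3.32-fold higher, a log2 fold change of 1.73 (SE 0.115) in edgeR's fit across all genes. By that value it ranked at place 36 of 5799, where 45 genes, or 0.776%, were at least 3-fold higher. The deposited counts behind it were 165 and 193 in DMSO and 752 and 633 in IAA.

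PRO1, which encodes the kinase of the first step, differed little between treatments. Its TMM-scaled CPM was 125 and 121 in DMSO (123 ± 2.45, n = 2) and 126 and 116 in IAA (121 ± 7.17, n = 2). The IAA libraries lay on either side of the DMSO libraries, so the groups overlapped. The log2 fold change was -0.02 (SE 0.0529), with 47.3% of all tested genes below it. It was -0.12 with library size scaling, and of the alternatives run only the one without IAA replicate 2 gave a positive value (0.05).

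PRO2, the reductase of the second step (YOR323C, chromosome XV, 921535 to 922905, minus strand), was lower in IAA. Its TMM-scaled CPM was 244 and 235 in DMSO (239 ± 6.5, n = 2) and 192 and 201 in IAA (196 ± 6.77, n = 2). The groups did not overlap, and the level was 1.22-fold lower (log2 fold change -0.28, SE 0.0463), with 16.6% of tested genes below it. PRO3, the reductase of the last step (YER023W, chromosome V, 201076 to 201936, plus strand), differed less. Its CPM was 161 and 146 in DMSO (153 ± 10.7, n = 2) and 144 and 135 in IAA (140 ± 6.52, n = 2). The IAA libraries lay below the DMSO libraries, but the lower DMSO and the higher IAA library were close together, and the log2 fold change was -0.13 (SE 0.0598). It was -0.06 without DMSO replicate 1, -0.08 without IAA replicate 2, -0.20 without DMSO replicate 2 and -0.24 with library size scaling. In all, 3 of the 4 genes had groups that did not overlap, and 81.5% of all tested genes did (40.2% with IAA above and 41.3% with IAA below), so this count says nothing particular about them.

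**Figure D2:**
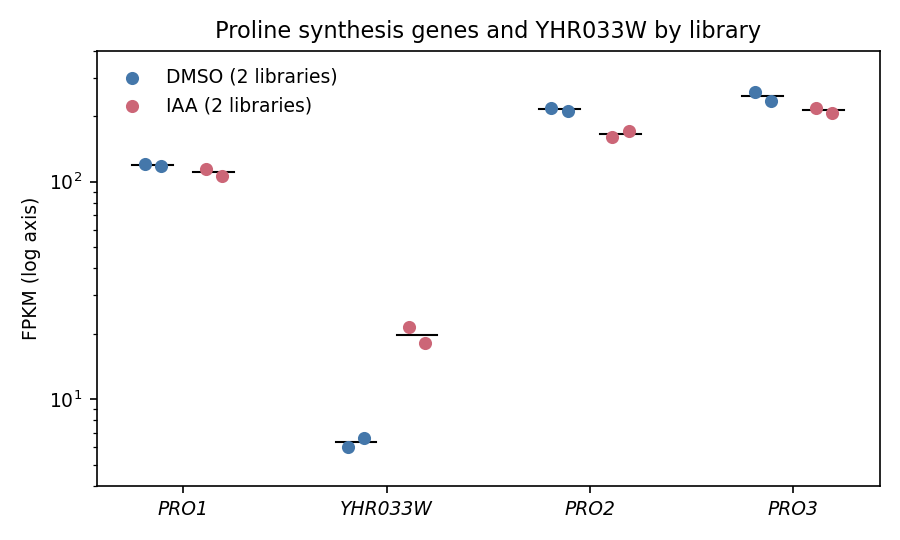
FPKM (log axis) of the 4 genes in each library, with points for libraries and black lines for the mean of 2. YHR033W sits near 6 in DMSO and at 18.09 and 21.4 in IAA, while the other genes stay above 100 FPKM in all 4 libraries.

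Per length, the order of the levels was the same in both treatments. In DMSO, PRO3 was highest at 247 ± 16.5 FPKM, followed by PRO2 at 215 ± 5.51, PRO1 at 119 ± 2.17 and YHR033W at 6.32 ± 0.453 (n = 2 each). In IAA the FPKM values were 213 ± 7.25, 166 ± 7.35, 111 ± 5.41 and 19.7 ± 2.34 (n = 2 each). The ranges of neighbours in this order were separate in both treatments, although PRO3 exceeded PRO2 by a ratio of means of only 1.15 in DMSO and 1.28 in IAA. Among all genes in the FPKM table, PRO1, PRO2 and PRO3 stood at the 75.2, 86.2 and 88.2 percentile in DMSO. YHR033W stood at the 14 percentile in DMSO and at the 22.5 percentile in IAA.

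Ratios between genes of one library do not depend on how libraries are scaled. PRO1 exceeded YHR033W by FPKM ratios of 20.2 and 17.8 in the DMSO libraries and of 5.35 and 5.9 in the IAA libraries. PRO1 thus remained the main transcript of the pair in every library, with a smaller lead in IAA. The FPKM ratio of PRO2 to PRO1 was 1.81 and 1.79 in DMSO and 1.4 and 1.6 in IAA, without overlap. The FPKM ratio of PRO3 to PRO1 was 2.14 and 2 in DMSO and 1.9 and 1.94 in IAA, a smaller step. These groups did not overlap either, but the gap between them was smaller than that between the DMSO libraries.

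As a share of the counts of both paralogs, YHR033W gave 4.66% (95% exact binomial interval 3.99 to 5.41) and 5.26% (4.56 to 6.04) in the DMSO libraries. In the IAA libraries it gave 15.6% (14.6 to 16.6) and 14.3% (13.3 to 15.4). These intervals cover counting error only, not the spread between cultures, and are no test of the difference between treatments. The mean share was 4.96 ± 0.424% in DMSO and 14.9 ± 0.919% in IAA (n = 2 each). The summed level of the pair was 131 and 128 CPM in DMSO and 150 and 136 CPM in IAA, so the groups were separate. On the FPKM scale the sums were 127 and 125 in DMSO and 136 and 125 in IAA, where IAA replicate 2 lay between the DMSO libraries.

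**Figure D3:**
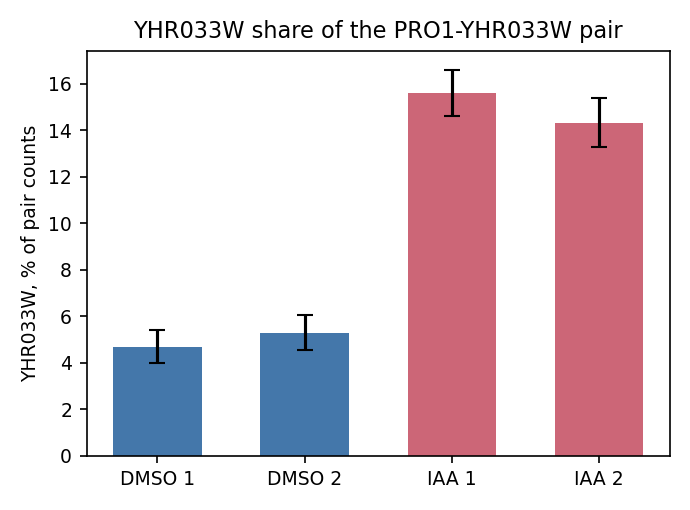
Share of YHR033W in the summed counts of PRO1 and YHR033W (%), one bar per library, with 95% exact binomial intervals. The DMSO libraries are at 4.66% and 5.26%, and the IAA libraries at 15.6% and 14.3%.

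The genes around the members were examined next, to set the values of the members beside those of their surroundings. Whether any effect acts on a chromosome stretch was not tested. The annotated protein-coding genes nearest on each side, 2 per side, gave 16 neighbours, all tested. With edgeR's quasi-likelihood test and Benjamini-Hochberg adjustment over all 5799 genes, 4 were higher and 5 lower in IAA, where 28.7% of all tested genes were higher and 29.6% lower (58.3% in either direction). Their median log2 fold change was -0.08, against 0.00 over all tested genes. The counts were 2 higher and 3 lower without DMSO replicate 1, 3 and 3 without DMSO replicate 2, and 2 and 9 with library size scaling. Only YAT2 was called with a difference of at least 1.5-fold, as were 9.64% of all tested genes. It is a carnitine acetyltransferase gene 255 bases downstream of PRO3 on the same strand, and its CPM rose from 33.3 and 30.4 to 49.6 and 48.2 (1.53-fold, edgeR adjusted p = 1.29e-04).

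Around YHR033W no neighbour was higher in IAA by the test. These genes are named for their place, after their values were seen. ERC1, upstream on the same strand with its end 458 bases before the YHR033W start, had 91.4 and 95.3 CPM in DMSO and 80.2 and 87 in IAA (log2 fold change -0.16, SE 0.0544, edgeR adjusted p = 0.0333). That call was lost with DESeq2, without either DMSO replicate and without IAA replicate 1 (adjusted p up to 0.184 over the alternatives). PIH1, which ends 145 bases beyond YHR033W on the opposite strand, had 18.7 and 15.7 CPM in DMSO and 17.6 and 16.3 in IAA, with overlapping groups (log2 fold change -0.02, SE 0.0959, edgeR adjusted p = 0.875). The remaining neighbours of YHR033W were RRM3, a DNA helicase gene, at a log2 fold change of -0.27 (edgeR adjusted p = 0.00351), and NEL1 at 0.04 (edgeR adjusted p = 0.728).

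**Figure D4:**
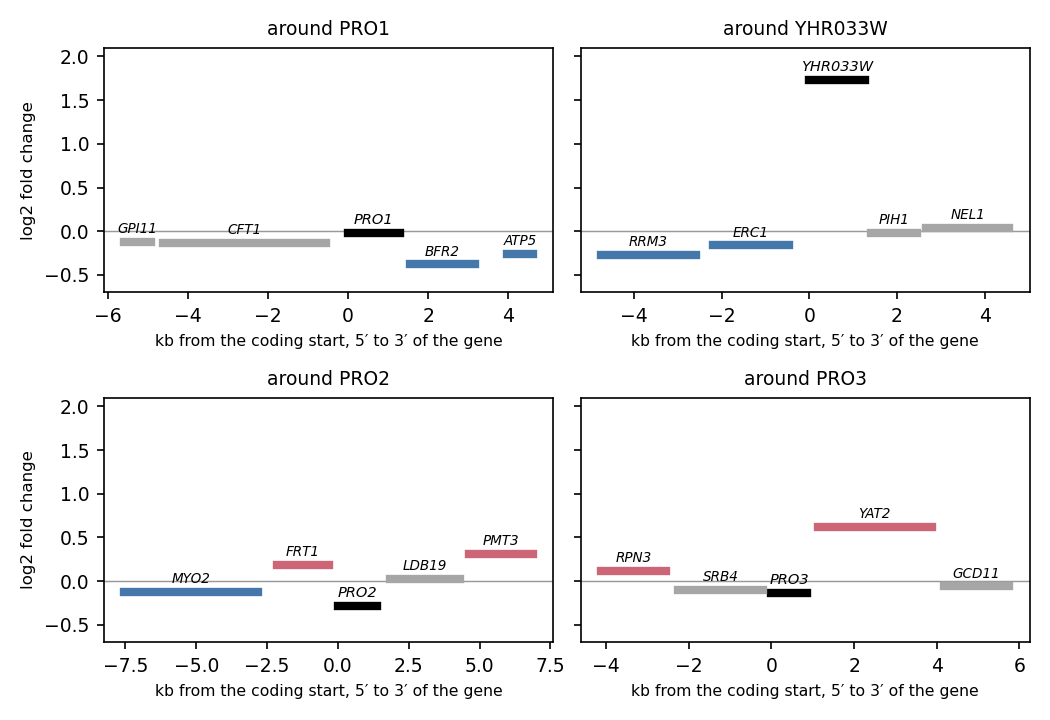
Log2 fold change (IAA over DMSO) of each member (black) and its 4 neighbours, drawn at their distance in kb from the member's coding start. Red and blue mark neighbours higher and lower at an edgeR adjusted p under 0.05, and grey the others. YHR033W stands at 1.73 while its neighbours lie between -0.27 and 0.04.

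Genes tied to the members by metabolism or by protein family, and genes for making glycerol, were then counted, in 8 lists with 40 different genes, all tested. In IAA 22 were higher and 2 lower (55.0% and 5.0%, against 28.7% and 29.6% of all tested genes), with a median log2 fold change of 0.20. Library totals as the only scaling shifted the log2 fold changes of all genes by a median of -0.10, and then 16 were higher and 4 lower. Without DMSO replicate 1, and also without DMSO replicate 2, 1 was lower. Over all genes, calls higher in IAA were 49.3% of calls with TMM and 31.1% with library size scaling. The 3 synthesis genes themselves lay at or below the median of all genes.

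Genes for the uptake and breakdown of proline were higher in part. Of the 7 genes of that list 4 rose and 0 fell, where 28.7% of all tested genes rose and 29.6% fell. The list's median log2 fold change was 0.31. In all 7 the IAA libraries lay above the DMSO libraries, as they did in 40.2% of all tested genes. The list includes the gene of the activator PUT3, which was not called (log2 fold change 0.07, edgeR adjusted p = 0.226). PUT4, the proline permease gene, rose from 2.07 and 2.66 to 4.99 and 4.73 CPM, a 2.05-fold rise from a low level (log2 fold change 1.03, SE 0.165, edgeR adjusted p = 9.59e-04). AGP1, a permease gene of broad range, rose 1.66-fold (edgeR adjusted p = 4.90e-05) and GNP1, another permease gene that carries proline, 1.24-fold (edgeR adjusted p = 4.85e-04). PUT1, the proline oxidase gene, rose from 5.44 and 5.91 to 8.25 and 7.8 CPM (1.41-fold, edgeR adjusted p = 0.00485). PUT2, which encodes the dehydrogenase of the next step, was not called, with 109 and 104 CPM in DMSO and 111 and 116 in IAA (log2 fold change 0.08, edgeR adjusted p = 0.164). GAP1, the general amino acid permease gene, was not called either (log2 fold change 0.09, edgeR adjusted p = 0.204). PUT1 and PUT4 fell out when genes had to average 10 CPM, and 2 of the 5 genes left then rose and 0 fell.

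Glutamate, the starting point of the route, is handled by 6 listed genes, of which 4 rose and 0 fell (median log2 fold change 0.40). Of all tested genes 28.7% rose and 29.6% fell. GDH2, whose enzyme breaks glutamate down, rose from 172 and 173 to 322 and 334 CPM (1.9-fold, edgeR adjusted p = 6.33e-06). GDH1 and GDH3, whose enzymes make glutamate, rose 1.24-fold and 1.4-fold (edgeR adjusted p = 0.0035 and 2.79e-04). GAD1, the glutamate decarboxylase gene, rose 1.46-fold (edgeR adjusted p = 7.38e-04).

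Arginine synthesis also starts from glutamate, which is first acetylated and then passes a kinase and a reductase. Of the 9 listed genes of this route 5 rose and 0 fell, where 28.7% of all tested genes rose and 29.6% fell. The median log2 fold change of the list was 0.20. ARG7 rose 1.34-fold, ORT1, the mitochondrial ornithine carrier, 1.29-fold, and ARG4, argininosuccinate lyase, 1.27-fold (edgeR adjusted p from 2.73e-04 to 0.00179). ARG1 rose 1.24-fold, but it was not called with library size scaling or in either FPKM fit (adjusted p up to 0.148). ARG2 rose 1.15-fold and lost its call in 7 of 12 alternatives, among them those without DMSO replicate 2 and without IAA replicate 2 (adjusted p up to 0.311). ARG5,6, written ARG56 in RefSeq, encodes the acetylglutamate kinase and reductase, the steps that parallel Pro1 and Pro2, and was not called (log2 fold change -0.02, SE 0.0476, edgeR adjusted p = 0.773).

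Arginine breakdown joins the proline route at glutamate semialdehyde. Both of its genes rose, where 28.7% of all tested genes did. CAR1, arginase, rose from 91.7 and 93.2 to 143 and 123 CPM (1.44-fold, edgeR adjusted p = 4.13e-04). CAR2, ornithine transaminase, rose from 25.1 and 26 to 47 and 40.1 CPM (1.7-fold, edgeR adjusted p = 1.57e-04). The products of 3 further genes join proline to tRNA or hydroxylate it in proteins. YHR020W, the cytosolic prolyl-tRNA synthetase gene, rose 1.18-fold (edgeR adjusted p = 0.00126). TPA1, a prolyl hydroxylase gene, fell from 256 and 246 to 207 and 202 CPM (log2 fold change -0.30, edgeR adjusted p = 6.82e-04). AIM10, which encodes a putative mitochondrial prolyl-tRNA synthetase, was not called (log2 fold change -0.02, edgeR adjusted p = 0.752).

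The relatives of the enzymes by protein family gave smaller values than YHR033W. Of 3 genes of the amino acid kinase family, to which Pro1 belongs, 2 rose and 0 fell. Among all tested genes 28.7% rose and 29.6% fell. HOM3, the aspartate kinase gene, rose 1.17-fold (log2 fold change 0.22, edgeR adjusted p = 0.00422) and lost its call with library size scaling, in both FPKM fits and without DMSO replicate 2 (adjusted p up to 0.0703). The other members, ARG2 and ARG5,6, are given above. Of 9 genes of the aldehyde dehydrogenase superfamily, to which Pro2 belongs, 4 rose and 1 fell, beside the same shares of all tested genes. The median log2 fold change of these 9 was 0.10. ALD4, a mitochondrial enzyme, rose 2.02-fold (edgeR adjusted p = 3.33e-05). UGA2, succinate semialdehyde dehydrogenase, rose 1.19-fold (edgeR adjusted p = 0.00598, and up to 0.0673 with library size or FPKM scaling). ALD3 rose 1.34-fold (edgeR adjusted p = 0.00118), with counts that share reads with another locus and are uncertain. HFD1 rose 1.1-fold and MSC7 fell by 0.12 on the log2 scale, and both calls were lost without DMSO replicate 1 and without DMSO replicate 2 (adjusted p up to 0.564 and 0.26 over the alternatives), that of HFD1 also without IAA replicate 2.

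Glycerol, another protectant that yeast accumulates, was served by 4 listed genes, of which 1 rose and 0 fell, where 28.7% of all tested genes rose. GPP2, a glycerol phosphatase gene, rose 1.15-fold (edgeR adjusted p = 0.0056), a call lost without DMSO replicate 1 and with library size or FPKM scaling (adjusted p up to 0.0996). GPD1 (log2 fold change 0.12, edgeR adjusted p = 0.0543), GPD2 (0.04, adjusted p = 0.486) and GPP1 (-0.09, adjusted p = 0.0815) were not called. GPD1 was called higher with RLE scaling, when genes had to average 10 CPM and with the replicate number as a block. Its edgeR adjusted p was then 0.0168 to 0.0467, which made the list's count 2. Without IAA replicate 1, a fit with 1 library in the IAA group, the log2 fold change of GPD1 was 0.16, above the 0.12 of all 4 libraries. With library size or FPKM scaling the list had 0 genes higher and 1 lower, GPP1 (adjusted p from 0.0035 to 0.0164 by edgeR or limma), and without DMSO replicate 1 it had 0 higher.

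**Figure D5:**
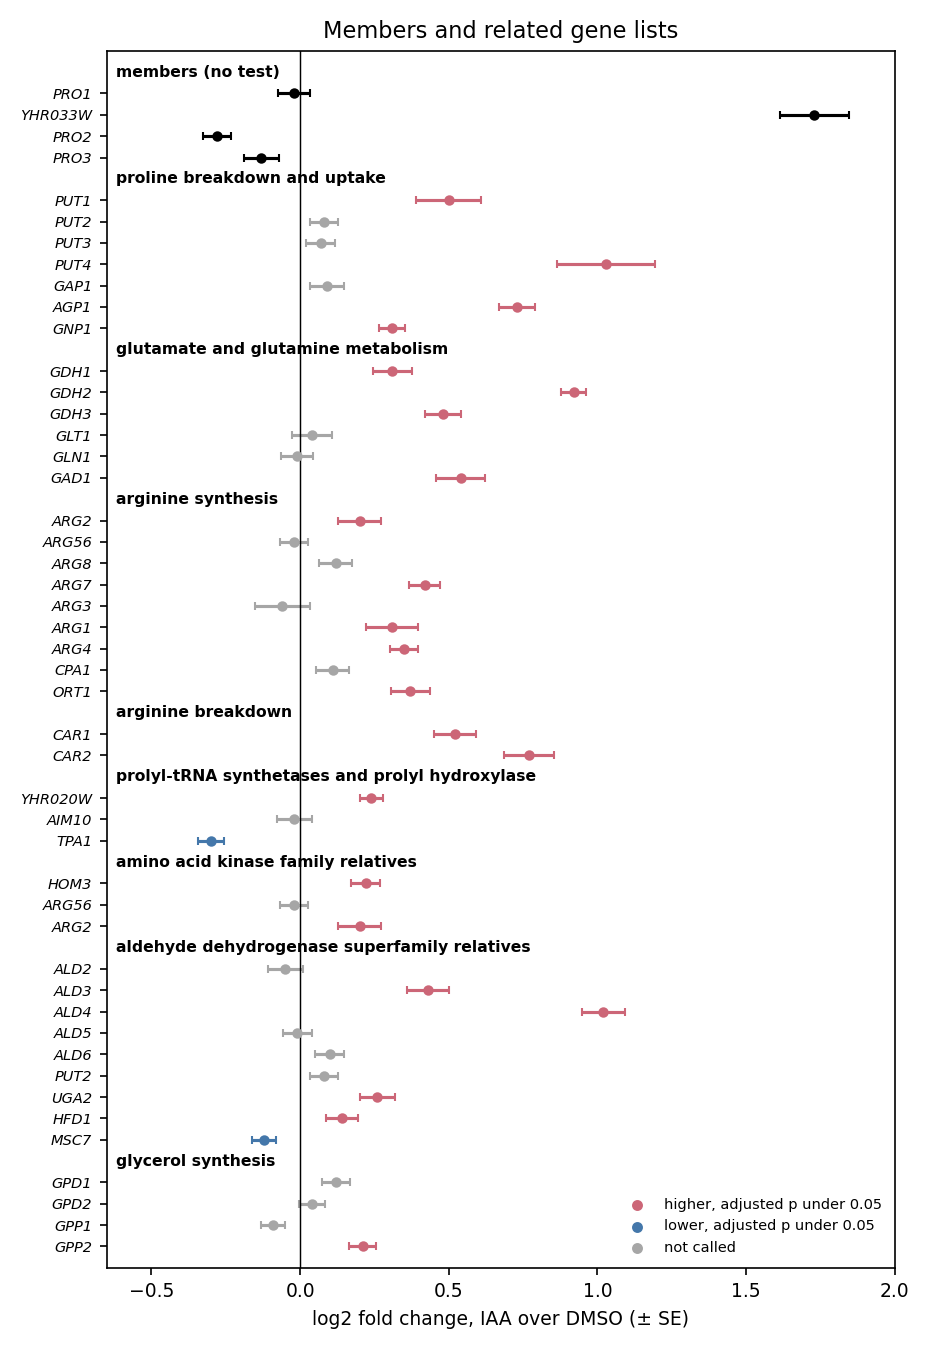
Log2 fold change (IAA over DMSO, ± SE) of the 4 members (black, no test) and of the genes in 8 related lists. Red and blue mark genes higher and lower at an edgeR adjusted p under 0.05, and grey the others. YHR033W at 1.73 lies beyond all listed genes, whose highest value is 1.03 for PUT4.

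For each member the 3 genes with the most similar profile were found among 5085 genes whose mean reached 10 CPM, as the Euclidean distance between log2 CPM values centred on each gene's mean over the 4 libraries. YHR033W was nearest to DIN7 (distance 0.144), the snoRNA SNR82 (0.174) and MUP3, a methionine permease gene (0.237). DIN7 had 17.7 and 17.6 CPM in DMSO and 68 and 57.2 in IAA, and MUP3 7.92 and 8.95 in DMSO and 25.6 and 26.3 in IAA. PRO1 was nearest to MIG2 (0.00898), NGL2 (0.0146) and RPS17B (0.0161). PRO2 was nearest to ADA2 (0.0146), RAD30 (0.0211) and VHS2 (0.0256), and PRO3 to ARC18 (0.0251), SKI6 (0.0258) and IGO2 (0.0282). With 4 libraries in 2 groups, such distances mostly reflect a like fold change. The nearest genes of YHR033W lay farther from it (0.144 to 0.237) than those of the other members did (0.00898 to 0.0282). How many genes lie close to each profile was not counted.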

How the data were processed

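RNA was sequenced in 2 DMSO and 2 IAA libraries, made with a directional kit from total RNA, per the labels' protocols. The authors deposited RSEM expected counts (estimated counts per gene, given to 2 decimals) and FPKM values, whose library scaling no source states. RSEM 1.3.3, STAR 2.7.10a, build R64, DESeq2, Trimmomatic, SAMtools 1.10 and FastQC 0.11.9 appear in the submitters' processing notes, with no role given. Strand setting and poly(A) selection: not given in the sources used here.

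Expected counts were rounded and tested in R 4.3.3 with edgeR 4.0.16 (default filterByExpr, TMM, glmQLFit and glmQLFTest without covariates), with Benjamini-Hochberg adjustment over 5799 genes and a threshold of 0.05. The standard error is the log2 fold change divided by the square root of F. The fit was also run on simulated counts drawn from its own dispersion estimates. Far fewer genes were changed there than were called here, so that run does not measure the error rate in these data. Alternatives used RLE or library size scaling, other filters, DESeq2 1.42.0, limma 3.58.1 on log2(FPKM + 1) and log2(FPKM + 0.1), the replicate number as a block, and each library left out. With 2 libraries a group, precision is limited by their number.

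Names and positions came from RefSeq R64, in which 6456 of 6459 row names were found. Coding sequences were aligned globally with Biopython 1.88. Promoter windows were read from the same genome. Other paralog pairs were not compared, since no protein table was used here. Of the genes first listed, 1 is not reported here. The members, lists, motifs and naming rule were chosen with earlier results of these data known. The rule names the 4 members, all genes of lists with 4 or fewer, in longer lists the called genes and PUT1, PUT2, PUT4, GAP1, CAR2, GDH1 and ARG5,6, called neighbours changed at least 1.5-fold, and the 3 nearest profiles of each member.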

Additional observations from a re-analysis of the deposited data

How the results depend on the processing

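YHR033W was higher in IAA under all 12 alternatives (log2 fold change 1.5 to 1.86) and PRO2 lower (-0.39 to -0.25). PRO3 was lower too (-0.24 to -0.06), and PRO1 lay between -0.12 and 0.05. With library size scaling the log2 fold changes were -0.12 for PRO1, -0.39 for PRO2 and -0.24 for PRO3, 4 listed genes were lower, and 2 neighbours were higher and 9 lower. In the FPKM fits PRO1 was at -0.11 with either pseudocount, PRO2 at -0.37 (pseudocount 1) and -0.38 (pseudocount 0.1), YHR033W at 1.5 with pseudocount 1, and 2 neighbours were higher and 8 lower with either. With DESeq2, and when genes under 10 CPM were removed, 1 listed gene was lower. Leaving out a library leaves 1 in its group, taken to vary as the other group does. PRO1 then ranged from -0.08 to 0.05, YHR033W from 1.59 to 1.86, PRO2 from -0.31 to -0.25 and PRO3 from -0.20 to -0.06. Listed genes were higher in 19 to 24 and lower in 1 to 2, neighbours higher in 2 to 4 and lower in 3 to 6, and all genes higher in 1259 to 1676 and lower in 1318 to 1730. The YHR033W share ranged from 4.66% to 5.26% in DMSO and from 14.3% to 15.6% in IAA, and from FPKM it was 5.03% and 15.2%. No listed gene or neighbour that was called changed direction. Beyond scaling and left-out libraries the causes were not tested.

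Same-numbered libraries deviated together (r = 0.26 over 5799 genes), but the labels do not say that a number marks a shared batch. With the replicate number as a block, 1832 genes were higher and 1876 lower, listed genes 24 and 2, and neighbours 4 and 6. The members stayed at -0.02 (PRO1), 1.73 (YHR033W), -0.28 (PRO2) and -0.13 (PRO3).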

Other observations

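HIS3, the marker that the genotype names beside the receptor construct, differed more between replicate numbers than between treatments. It had 20997 and 31883 counts in DMSO replicate 1 and IAA replicate 1, and 10370 and 14465 in DMSO replicate 2 and IAA replicate 2. In FPKM these were 1805.36, 2170.54, 847.37 and 996.03 in the same order. HIS3 was looked up as a strain marker and is no member of any list, and the difference was not tested.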
